A study of Mus musculus with 2 samples.

Results

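The genes described here encode the pre-mRNA splicing machinery and the heterogeneous nuclear ribonucleoproteins (hnRNPs). They were taken by their names on the array, as every non-control probe whose gene name began with Hnrp or Snrp, was Sfrs followed by a number, Sf3a or Sf3b with a number, U2af, or Prpf with a number. The rule found 75 gene names with 156 probes, of 27962 gene names with 41174 probes in all. The study compared adipocyte-derived microvesicles (ADMs), membrane-bound particles released into the medium, with their 3T3-L1 donor adipocytes by their RNA content. 3T3-L1 is an established mouse preadipocyte line, so no animal or genotype varied. Cultures in high-glucose medium with 10% fetal serum were turned into adipocytes with insulin at 10 µg/ml, IBMX at 0.5 mM and dexamethasone at 0.25 µM, and on day 11 the ADMs were pelleted from their medium by ultracentrifugation while the donor cells were harvested for the paired RNA. Each of 2 biological replicates was 1 two-channel array that held the ADM RNA and the donor cell RNA, 250 ng of each having been amplified into labelled cRNA. Cy5 marked the ADM RNA in replicate 1 and the cell RNA in replicate 2, with Cy3 on the partner each time. The labels give no further treatment that separates the RNAs, and both come from cells exposed to the same inducers. Since every direction rests on those dye labels, the names ADM-labelled and cell-labelled RNA are used.

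Splicing removes introns from pre-mRNA on the spliceosome, which is assembled from small nuclear ribonucleoproteins (snRNPs), each an RNA bound by a ring of Sm proteins and by proteins of its own. U1 marks the 5′ splice site, the U2AF heterodimer reads the 3′ splice site, U2 with the SF3a and SF3b complexes holds the branch point, and the U4/U6.U5 tri-snRNP with its PRPF proteins forms the catalytic core. SR proteins mostly promote exon recognition and hnRNPs often repress it, and several of both kinds accompany mRNA into the cytoplasm. Many of the array's names are old: Hnrp genes are now Hnrnp, Sfrs1 to Sfrs7, Sfrs9 and Sfrs11 are Srsf genes, Sfrs10 is Tra2b, Sfrs8 is Sfswap, and Sfrs12, Sfrs14, Sfrs15, Sfrs16 and Sfrs2ip are Srek1, Sugp2, Scaf4, Clasrp and Scaf11, which are SR-related rather than classical SR proteins.

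Transcripts of nearly all of these genes were measurable in ADMs. On both arrays 128 of the 156 probes (82.1%) were well above background in that RNA, against 41.9% of all probes, and 78 (50%) were so in the cell-labelled RNA, against 21.3% of all probes. No splicing probe was well above background in the cell-labelled RNA alone, a pattern that was rare over the whole array too, with 677 of 41174 probes. A probe was tested where it was well above background in the same RNA on both arrays, which kept 128 splicing probes of 74 genes and left out the single probe of Hnrpul2 (Hnrnpul2). The 28 untested probes comprised 14 with no value on an array, 5 not seen on both arrays in the same RNA and 9 not well above background in either RNA on either array.

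The ADM channel was the brighter for all 128 tested splicing probes in replicate 1 and for all but 4 in replicate 2. The filter let each of these probes in by its ADM-labelled signal, and only 78 met it by the cell-labelled signal as well. For the rest the selection itself favoured a brighter ADM channel, so their direction says little. Among the 78, the ADM channel was the brighter for all in replicate 1 and for all but 2 in replicate 2. The median net signal (spot minus local background, in scanner units) of the tested splicing probes was 1137 and 434 in the ADM-labelled RNA and 21.4 and 53.5 in the cell-labelled RNA, in replicates 1 and 2. Over all tested probes it was 545 and 208 in the ADM-labelled RNA and 17.3 and 36.4 in the cell-labelled RNA. Over the 78 probes seen in both RNAs, the net signal of the ADM-labelled RNA was 58.8 times that of the cell-labelled RNA in replicate 1 (range 2.95 to 127) and 8.24 times in replicate 2 (range 0.533 to 27.2), against 63.9 and 8.78 times over all probes seen in both. The ratios given from here on were therefore normalized within each array by loess, which sets probes of similar brightness level with each other on balance, and "higher" and "lower" mean relative to such probes, not more or less RNA per vesicle or cell. After loess the median of all 18117 tested probes was 0.07 on the log2 scale, and it was 0.37 with quantile normalization of the channels, 0.69 with the scanner's processed signals and 2.04 with median centring, which keeps any trend of the ratio with brightness.

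**Figure D1:**
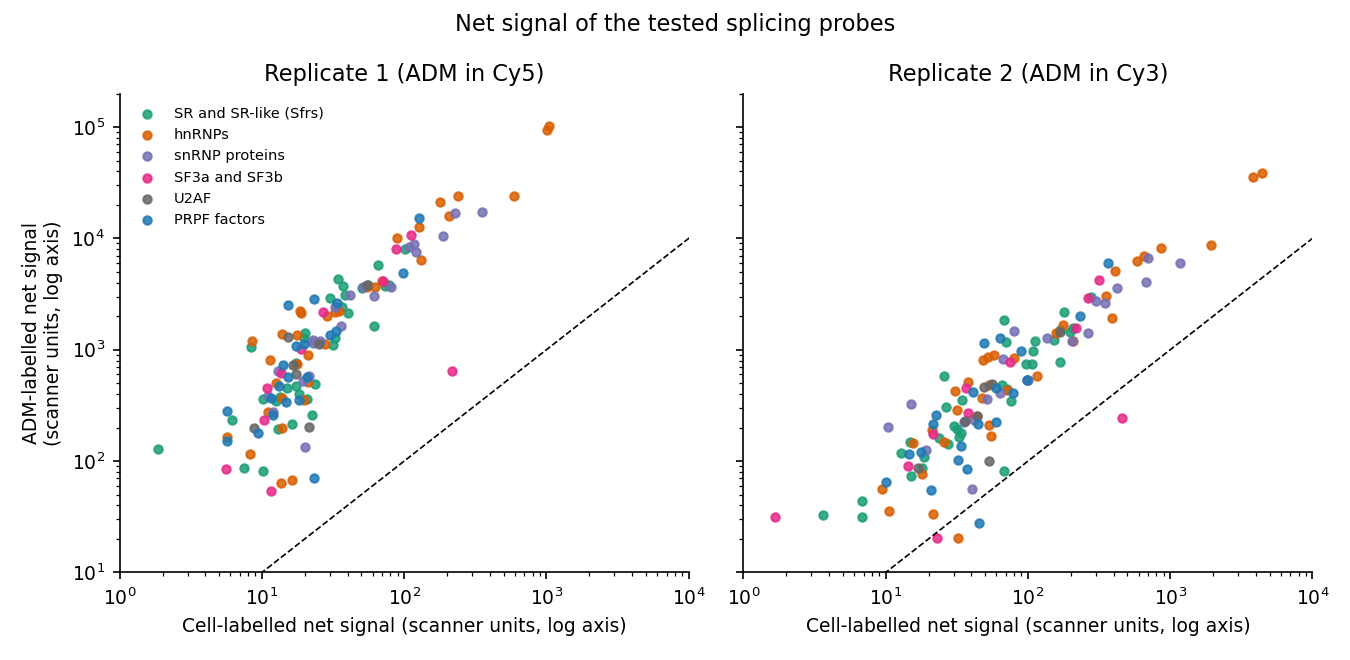
Net signal (spot minus local background, scanner units, log axes) of the tested splicing probes, with the cell-labelled RNA on the horizontal and the ADM-labelled RNA on the vertical axis, 1 panel per replicate and colours for the roles of the proteins; a point is 1 probe, and the dashed line marks equal signal. All points lie above the line in replicate 1, and 4 lie below it in replicate 2, of Sf3b1, Prpf18, Hnrpa1 and Sf3a2.

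As a check of the culture, 10 of 16 adipocyte marker probes passed the background on both arrays with the ADM-labelled RNA and 8 with the cell-labelled RNA. Fabp4, the adipocyte fatty acid binding protein, had net signals of 492342 and 239808 in the ADM-labelled RNA and 1739 and 24498 in the cell-labelled RNA. Beside 5.61% of all tested probes called higher and 10.9% lower at a limma adjusted p under 0.05 after loess, of 10 tested adipocyte probes 1 was called higher and 4 lower, and of 14 tested preadipocyte and fibroblast probes 6 were called higher and 0 lower. Of 15 macrophage and leukocyte probes 2 were tested, both of Lyz2 (named Lyzs on the array), of which 1 was called lower at a mean of −3.30 and the other read −0.04, and none of 8 endothelial probes was tested. Malat1, a long RNA retained in the nucleus, had 3 tested probes, of which 2 were called lower. The part of these markers in the results below was not tested.

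Few splicing transcripts stood apart between the RNAs after loess. At a limma adjusted p under 0.05, 9 of 128 tested splicing probes were called, 2 as higher in ADMs and 7 as lower, and 119 did not pass. Over all 18117 tested probes 16.5% were called, 5.61% higher and 10.9% lower, so the 7.03% of splicing probes called was below the background after loess. With median centring the order was the opposite, with 78.9% of splicing probes called against 61% of all probes. Without adjustment 29 of the 128 splicing probes had limma p under 0.05, against 6488 of all 18117 tested probes, a larger share. The ratios were also narrow: 106 (82.8%) lay within 0.5 of 0 on the log2 scale and 125 (97.7%) within 1, against 74.5% and 89% of all tested probes. At least 2-fold lower on both arrays were 2 splicing probes (1.56%, all probes 6.48%), and 0 were at least 2-fold higher on both (all probes 1.12%). The width depended on the background correction, whose offset of 50 stood beside median cell-labelled net signals of 21.4 and 53.5. The middle 50% of splicing probes lay between −0.28 and 0.13 here and between −0.56 and 0.32 with plain background subtraction. Over all tested probes these limits were −0.25 and 0.25 here, and −0.50 and 0.85 with plain background subtraction.

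The median log2 ratio of the tested splicing probes was −0.06, which was 0.12 below that of all tested probes. It was below that of all probes with quantile normalization and with the scanner's processed signals too, but with median centring it was 2.69 and lay 0.65 above the median of all probes. The tested splicing probes were also brighter in the median than all tested probes, and the part of brightness in that value was not tested. On the arrays taken singly, after loess, the splicing median was −0.03 in replicate 1 and −0.09 in replicate 2. The ratio had the same sign on both arrays for 103 probes (80.5%, all probes 81%), and the median SD between the arrays was 0.121 (all probes 0.137). With 2 arrays a p-value rests on the spread between these arrays, moderated by the variances of all tested probes. The dyes were exchanged between the arrays, so replicate and dye orientation cannot be told apart in that spread. The labels do not say how far the replicates were handled apart.

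**Figure D2:**
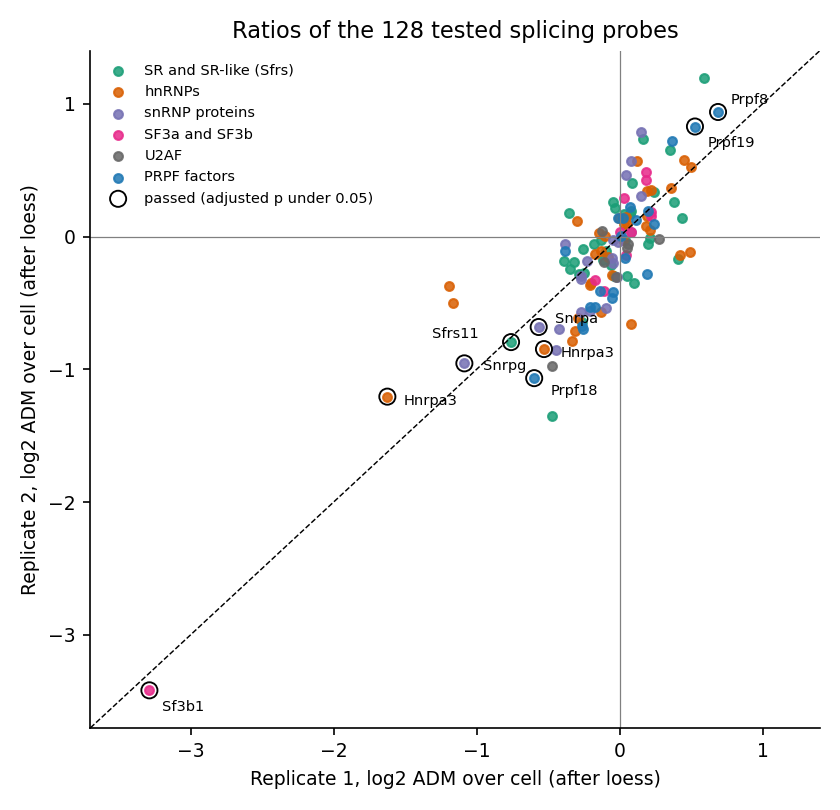
Log2 ratio of ADM-labelled over cell-labelled RNA after loess, replicate 1 on the horizontal and replicate 2 on the vertical axis; each point is 1 of the 128 tested splicing probes, coloured by role, and rings mark the 9 called probes. Most points crowd around 0, and the Sf3b1 probe at −3.29 and −3.42 lies far from the others.

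Among the SR and SR-related genes 34 probes of 16 genes were tested, 0 were called higher and 1 lower, with a median of −0.08 (2.55 with median centring). The call was of Sfrs11 (now Srsf11), an SR-type nuclear protein, by a probe at chromosome 3, 157926028 to 157927507 (build mm7, minus strand). Its net signals were 1648 and 783 in the ADM-labelled RNA and 61.6 and 169 in the cell-labelled RNA. It was 1.71-fold lower after loess, at −0.76 and −0.79 on the arrays (mean −0.78 ± 0.0254, SD, n = 2, limma adjusted p = 0.028), but at 2.58 with median centring, 0.54 above the median of all probes there. The other tested Sfrs11 probe read 0.41 and −0.17.

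The brightest probe of the group was that of Sfrs9 (now Srsf9), with net signals of 8035 and 3002 in the ADM-labelled RNA and 101 and 280 in the cell-labelled RNA. Its ratios were 0.03 and 0.17 (mean 0.10 ± 0.0948, SD, n = 2, limma adjusted p = 0.553). Sfrs6 (now Srsf6), which binds exonic enhancers, held the group's highest ratio at 0.59 and 1.19 (mean 0.89 ± 0.426, limma adjusted p = 0.0528), and Sfrs10 (Tra2b), a splicing activator, its lowest at −0.47 and −1.35 (mean −0.91 ± 0.625, limma adjusted p = 0.0845). Neither passed, and in both the arrays differed by over 0.5. Both probes of Sfrs5 (now Srsf5) were positive on both arrays, with means of 0.50 and 0.45, and did not pass. Sfrs1 (now Srsf1, the founding SR protein), Sfrs2, Sfrs3 and Sfrs7 had tested probes between −0.45 and 0.32, none of which passed. The value of 0.32 was of Sfrs3, by a probe not well above background in the cell-labelled RNA on either array.

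Of the hnRNPs 34 probes of 19 genes were tested, 0 were called higher and 2 lower, with a median of −0.05 (3.15 with median centring). Both calls were of Hnrpa3 (now Hnrnpa3), an A/B-type hnRNP that binds RNA and takes part in cytoplasmic mRNA transport. The brighter probe, at chromosome 2, 75509266 to 75509325 (mm7, plus strand), had net signals of 24131 and 8764 in the ADM-labelled RNA and 593 and 1921 in the cell-labelled RNA. It was 2.67-fold lower after loess, at −1.62 and −1.21 (mean −1.41 ± 0.296, SD, n = 2, limma adjusted p = 0.0191), but at 3.37 with median centring, 1.33 above all probes. The second, at 75509533 to 75509592, was lower at −0.53 and −0.85 (mean −0.69 ± 0.225, limma adjusted p = 0.0471), but at 3.32 with median centring, 1.28 above all probes. The remaining Hnrpa3 probes had means of −0.56 and −0.45 and did not pass, so that all 4 tested probes of the gene were negative on both arrays.

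Hnrpk (now Hnrnpk), a poly(C)-binding protein of nucleus and cytoplasm, gave the brightest splicing probe of all, with net signals of 102769 and 38616 in the ADM-labelled RNA and 1043 and 4412 in the cell-labelled RNA. Its ratios of −1.17 and −0.50 (mean −0.83 ± 0.471, SD, n = 2, limma adjusted p = 0.0665) did not pass. Hnrpab (now Hnrnpab) was nearly as bright and likewise unequal between arrays, at −1.19 and −0.37 (mean −0.78 ± 0.583, limma adjusted p = 0.102). The highest hnRNP ratios were those of Hnrpl (now Hnrnpl), a CA-repeat binder, and Hnrpr (now Hnrnpr), both with a mean of 0.51, and they did not pass (limma adjusted p = 0.0574 and 0.054). Hnrpa2b1 (now Hnrnpa2b1), known for its part in sorting RNAs into vesicles, had probes at 0.13 and 0.14 that did not pass (limma adjusted p = 0.439 and 0.588). All 4 tested probes named Hnrpa1 (now Hnrnpa1), a splicing repressor, were negative on both arrays, with means of −0.12 to −0.51, and none passed; 1 of them lies on chromosome 9 and not with the other 3 on chromosome 15.

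The snRNP proteins had 21 tested probes of 13 genes, 0 called higher and 2 lower, and the lowest median of the role groups, −0.21, with 16 of the 21 probes below 0. With median centring that median was instead 3.18, which was 1.14 above all probes. All 21 probes kept their sign between the arrays. Snrpg, the Sm ring protein SmG, was the brightest of them, at chromosome 6, 86453856 to 86453915 (mm7, plus strand), with net signals of 17084 and 6054 in the ADM-labelled RNA and 353 and 1174 in the cell-labelled RNA. It was 2.03-fold lower after loess, at −1.09 and −0.95 (mean −1.02 ± 0.0922, SD, n = 2, limma adjusted p = 0.0203), but at 3.53 with median centring, 1.49 above all probes. Snrpa, a protein of the U1 snRNP, was 1.54-fold lower after loess by a probe at chromosome 7, 24105861 to 24105920 (mm7, minus strand), at −0.57 and −0.68 (mean −0.62 ± 0.0816, limma adjusted p = 0.0413), but at 3.65 with median centring, 1.60 above all probes. Its net signals were 10523 and 4027 in the ADM-labelled RNA and 188 and 676 in the cell-labelled RNA. The other 3 Snrpa probes, all dimmer, had means of −0.03 to −0.32 and did not pass.

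Further snRNP probes lay below 0 without passing. Snrpf, the Sm ring protein SmF, had means of −0.56 and −0.42 (limma adjusted p = 0.0625 and 0.112), and Snrp70 (now Snrnp70), the U1 protein that contacts the U1 RNA, −0.65 and −0.22 (limma adjusted p = 0.0626 and 0.322). Snrpb, the Sm ring protein SmB, was on the other side at 0.15 and 0.79 (mean 0.47 ± 0.452, limma adjusted p = 0.177). Snrpn, a close relative of SmB expressed from the paternal allele, had probes at 0.32 and 0.25, and both were among the probes seen in the ADM-labelled RNA alone. Snrpb and Snrpn are similar in sequence, and whether their probes separate them was not analysed here.

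Of the U2 snRNP complexes SF3a and SF3b, 11 probes of 8 genes were tested, with 0 called higher, 1 lower and a median of 0.06 (2.26 with median centring). The call was of Sf3b1, the large SF3b subunit that clamps the branch point, and was the largest difference among the tested splicing probes after loess. The probe lies at chromosome 1, 55259567 to 55261836 (mm7, minus strand). Its net signals were 643 and 244 in the ADM-labelled RNA and 218 and 458 in the cell-labelled RNA. It was 10.2-fold lower, at −3.29 and −3.42 (mean −3.35 ± 0.092, SD, n = 2, limma adjusted p = 0.00197). With median centring it was not called, at −0.03, which was 2.07 below all probes. The other Sf3b1 probe, at 55232690 to 55232749 and 26.9 kb further towards the 3′ end, read 0.18 and 0.49 (mean 0.34 ± 0.217, limma adjusted p = 0.166), and it was seen in the ADM-labelled RNA only. The remaining SF3 probes had means of −0.26 to 0.30, among them the brightest, Sf3b2, with net signals of 10738 and 4192 in the ADM-labelled RNA and 112 and 318 in the cell-labelled RNA and ratios of 0.18 and 0.42 (mean 0.30 ± 0.17, limma adjusted p = 0.175).

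Of the U2AF genes 7 probes of 5 genes were tested and 0 were called, with a median of −0.04 (2.25 with median centring); 1 had p under 0.05 without adjustment. The brightest, of the small subunit U2af1, had net signals of 3839 and 1444 in the ADM-labelled RNA and 54.8 and 168 in the cell-labelled RNA. Its ratios were 0.05 and −0.08 (mean −0.01 ± 0.0984, SD, n = 2, limma adjusted p = 0.934). U2af2, the large subunit that binds the polypyrimidine tract, had a probe at −0.47 and −0.97 (mean −0.72 ± 0.353, limma adjusted p = 0.0622) and another at 0.06 and −0.06, and neither passed.

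Of the PRPF factors 21 probes of 13 genes were tested, with 2 called higher, 1 lower and a median of −0.05 (2.09 with median centring). Prpf8, the U5 protein at the heart of the spliceosome, was 1.76-fold higher by a probe at chromosome 11, 75588339 to 75589866 (mm7, plus strand). Its net signals were 2532 and 1150 in the ADM-labelled RNA and 15.1 and 49.2 in the cell-labelled RNA, and its ratios 0.69 and 0.94 (mean 0.81 ± 0.177, SD, n = 2, limma adjusted p = 0.0318). In replicate 1 the cell-labelled signal of this probe was not well above background, so the size of the fold is uncertain. The mean of the probe was 1.33 with plain background subtraction, where it was not called, and 2.23 with the scanner's processed signals. The other Prpf8 probe had a value on replicate 2 only, of 0.86. Prpf19, a ubiquitin ligase of the complex that activates the spliceosome, was 1.60-fold higher at chromosome 19, 10583804 to 10583863 (mm7, plus strand), with ratios of 0.53 and 0.83 (mean 0.68 ± 0.214, limma adjusted p = 0.0469). Its net signals were 2850 and 1276 in the ADM-labelled RNA and 23.4 and 63.6 in the cell-labelled RNA. With plain background subtraction Prpf19 was not called either. Prpf8 and Prpf19 were also called higher with median centring, 2.03 and 2.01 above all probes, but 59.5% of all tested probes were called higher there.

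Prpf18, a factor of the second catalytic step, was 1.78-fold lower by a dim probe at chromosome 2, 4550854 to 4552955 (mm7, minus strand), at −0.60 and −1.07 (mean −0.83 ± 0.332, SD, n = 2, limma adjusted p = 0.0462). Its net signals were 71.0 and 27.9 in the ADM-labelled RNA and 23.2 and 44.9 in the cell-labelled RNA. Plain background subtraction put it at −2.57 and the scanner's processed signals at −2.52. With median centring it was not called, at −0.08, which was 2.13 below all probes. The other Prpf18 probes, both about 11.4 kb further towards the 3′ end, read 0.12 and 0.15 and did not pass. Prpf6, which bridges the parts of the tri-snRNP, was the brightest of the group, with net signals of 15272 and 6046 in the ADM-labelled RNA and 126 and 364 in the cell-labelled RNA. Its ratios of 0.37 and 0.72 (mean 0.54 ± 0.249, limma adjusted p = 0.0758) did not pass.

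**Figure D3:**
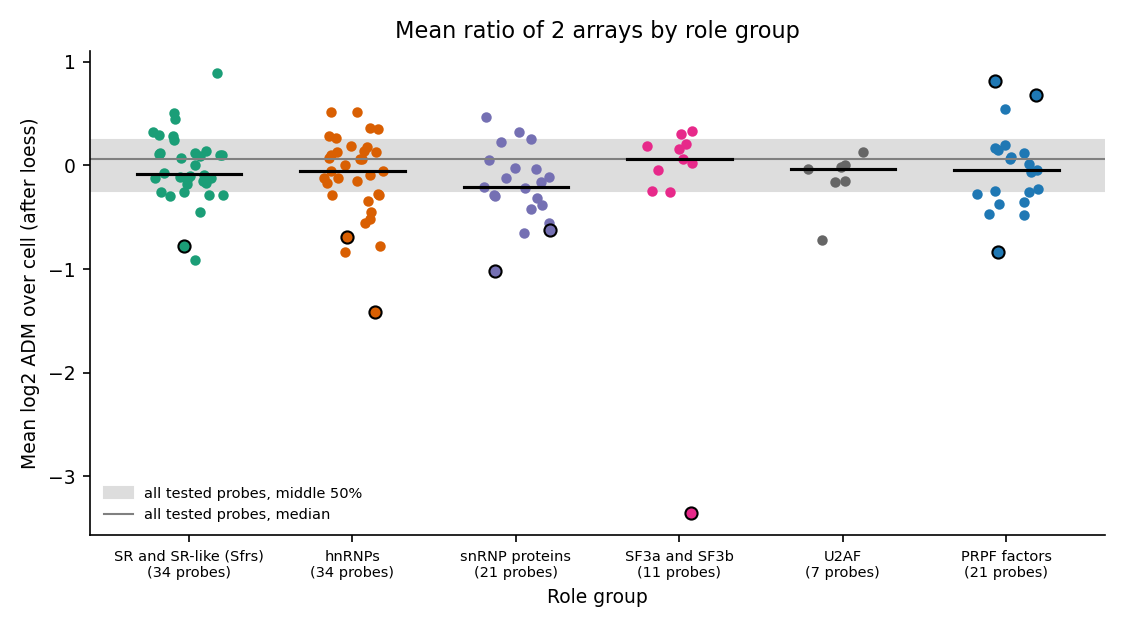
Mean log2 ratio of ADM-labelled over cell-labelled RNA after loess (2 arrays) for each tested splicing probe, grouped by the role of its protein; black outlines mark the called probes, black bars the group medians, the grey line the median of all tested probes, 0.07, and the grey band the middle 50% of them. All 6 group medians lie below that line, from −0.21 for the snRNP proteins to 0.06 for SF3a and SF3b, whereas with median centring all 6 are above the median of all probes.

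Few splicing genes had probes over 1 apart on the log2 scale, but the median range was not small beside the spread of all splicing probes. The mean ratios of all tested splicing probes had quartiles of −0.28 and 0.13. Whether probes of the same gene were closer to each other than probes of different genes was not tested. Over the 38 splicing genes with more than 1 tested probe the median range between probes was 0.36 on the log2 scale, against 0.29 over 3997 genes of the whole array. A range over 1 was found in 1 splicing gene (2.63%), Sf3b1 at 3.69, against 12.2% of all such genes, and 0 splicing genes had probes called in both directions. The 3′ probe behind the Sf3b1 range was not well above background in the cell-labelled RNA on either array, so the size of that range is uncertain. Probes of a gene share a transcript and are not replicates of each other.

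The ranges over 0.7, a limit chosen after the values were seen, belonged to 9 genes, namely Sf3b1, Prpf18, Hnrpa3, Sfrs11, Hnrpk, Sfrs10, Sfrs6, Sfrs2 and U2af2. In 6 of them the probe nearest the 5′ end had a lower ratio than that nearest the 3′ end, and in Hnrpk, Sfrs6 and U2af2 a higher one. Hnrpa3 is among the 6, but its end probes were close, at −0.56 and −0.45. Its range came from a probe between them, at −1.41. The 3′ probe of Sfrs6, like that of Sf3b1, was not well above background in the cell-labelled RNA on either array. Over the 36 splicing genes whose probes could be placed, the 3′ probe minus the 5′ probe had a median of −0.07 and was positive in 14 genes (38.9%), against a median of 0.05 and 55.9% over 3672 genes of the whole array. Placement in exons, introns or untranslated regions was not analysed here.

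**Figure D4:**
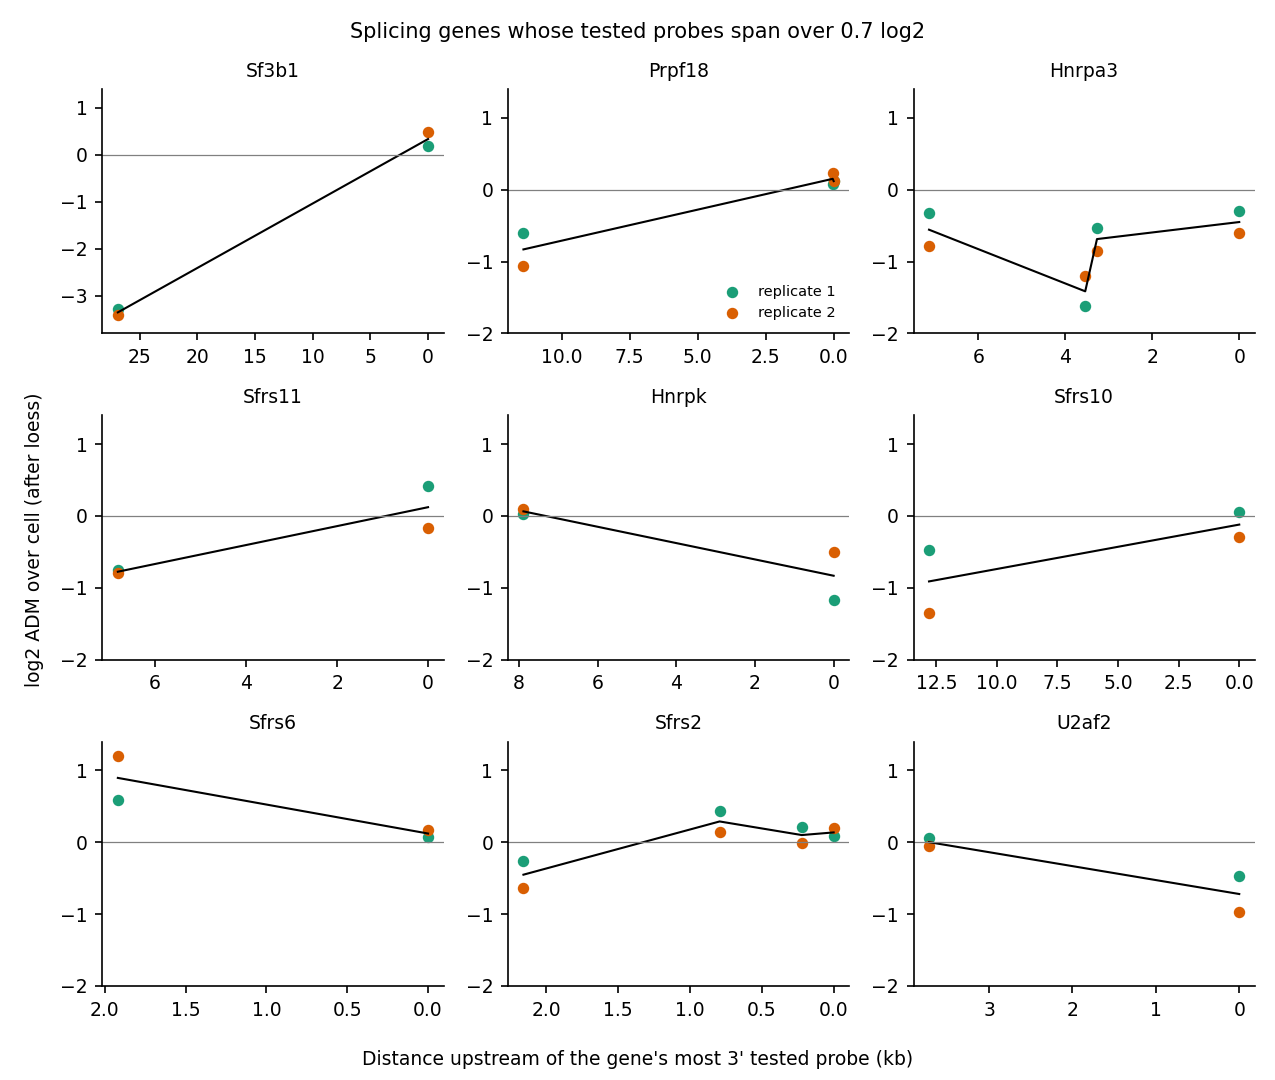
Log2 ratio of ADM-labelled over cell-labelled RNA after loess against distance upstream of the gene's most 3′ tested probe (kb), 1 panel for each of the 9 splicing genes whose probe means span over 0.7; points are the replicates and lines join the means. The vertical scale of the Sf3b1 panel is longer than that of the others, and its 5′ probe lies at −3.29 and −3.42 while its 3′ probe lies at 0.18 and 0.49.

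The ADM-labelled RNA passed the background on both arrays and the cell-labelled RNA on neither for 4971 of all 41174 probes. The same held for a similar share of the splicing probes, 16 of 156. Their ratios rest on a cell-labelled signal that was not well above background. The log2 ratios printed above for some of them are therefore uncertain, no fold is given for them, and none passed the test. They had net signals of 81.7 to 640 in replicate 1 of the ADM-labelled RNA, and belonged to Prpf31, Prpf39, Prpf4b, Sf3a1, Sf3b1, Sfrs1, Sfrs12, Sfrs14, Sfrs2ip, Sfrs3, Sfrs6, Hnrpa0, Hnrpdl, Hnrpul1 and Snrpn.

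Splicing genes outside these names were counted in the same fit. A list of 114 such genes, among them Sm-like proteins, DEAD-box helicases, RBM proteins and exon junction factors, had 110 genes on the array and 184 tested probes of 105 genes. Of these probes 3 were called higher and 14 (of 12 genes) lower, which is 9.24% beside the 16.5% of all probes, but 72.3% beside 61% with median centring. Their median was 0.06 after loess, near the 0.07 of all probes, and no test compared the list with the genes above. The 3 higher calls were of Son, a nuclear speckle protein, Rbm10 and Wbp11, with means of 0.69, 0.60 and 0.54 (limma adjusted p = 0.0354, 0.0416 and 0.0486); other tested Son probes read 0.21 and −0.50.

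The lowest calls were of Sf1, the branch point binding protein, at −2.39 and −2.63 (mean −2.51 ± 0.172, SD, n = 2, limma adjusted p = 0.00482), Ddx42, a helicase of the U2 snRNP, at −1.83 and −2.79 (mean −2.31 ± 0.677, limma adjusted p = 0.0213), and Rbm9 (now Rbfox2), a regulator of tissue-specific exons, at −1.78 and −2.32 (mean −2.05 ± 0.382, limma adjusted p = 0.0134). With median centring these probes were instead at 1.70, 0.20 and 1.84, that is 0.34, 1.84 and 0.20 below all probes. Each gene had another tested probe near 0 or above it, as for Sf3b1 and Prpf18. For Sf1 those read −0.89, 0.19 and 0.39, for Ddx42 0.24 and for Rbm9 −0.05, and none passed.

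The called probes depended on the normalization chosen. With median centring 101 splicing probes were called higher and 0 lower (all probes 59.5% and 1.46%), and the p-values there rest on 1 variance shared by all probes. Quantile normalization of the channels called 36 higher and 14 lower (all probes 40.9% and 16.7%), and the scanner's processed signals 21 higher and 8 lower (all probes 32% and 14.2%). Under quantile normalization 9 of the 9 calls were made again in the same direction, with processed signals 6 and with median centring 2, of Prpf8 and Prpf19. Plain background subtraction kept 2 of the 9, the lower calls of Sf3b1 and Prpf18. With the spots of outlying local background kept, limma called 0 of 139 splicing probes, and 0 of them had p under 0.05 without adjustment.

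**Figure D5:**
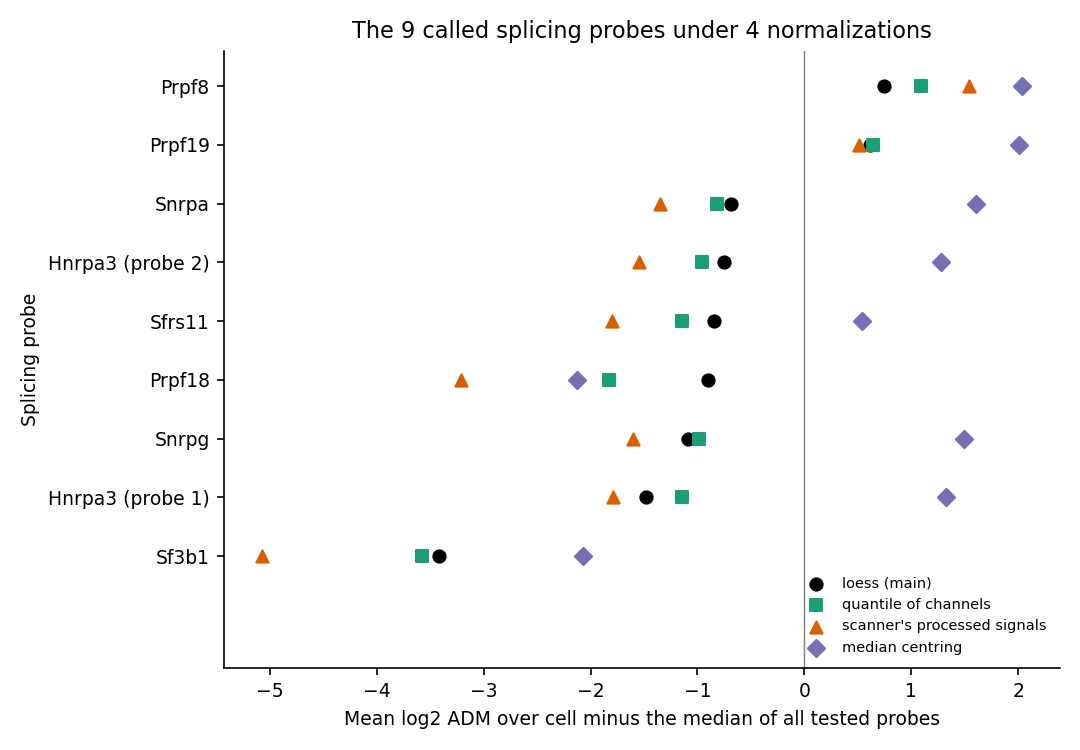
The 9 called splicing probes under 4 normalizations, as the mean log2 ratio of ADM-labelled over cell-labelled RNA minus the median of all tested probes under the same normalization. Prpf8 and Prpf19 stay above 0 and Sf3b1 and Prpf18 below it under all 4, while Hnrpa3, Snrpg, Snrpa and Sfrs11 are below 0 except with median centring.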

How the data were processed

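The deposited scanner files of both arrays held the mean spot intensity and the median local background intensity of each channel without normalization, with spot flags and mm7 probe positions, from Feature Extraction 10.5.1.1, per the file headers. Per the file headers, the same software subtracted background, detrended and normalized dyes to give the processed intensity and its log10 ratio. In the deposited series table, 100.0% of spots equalled that log10 ratio within 0.001 in replicate 1 and its negative in replicate 2, and it was not used further. Spots flagged as outliers were dropped, and so were those with an outlying local background (2303 and 1710 spots) before background correction, a choice made with the result of keeping them known; 3198 probes then had no value on an array. Intensities were corrected with normexp (offset 50) and normalized by loess within each array, control spots at weight 0, and array 2 was turned so that each log2 ratio is ADM-labelled over cell-labelled. Replicate spots were averaged, and 50% of them had to carry the scanner's flag for a probe to be well above background.

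Probe means were tested against 0 with limma 3.58.1 (lmFit, eBayes, R 4.3.3; 1 residual and 2.93 prior degrees of freedom), with Benjamini-Hochberg adjustment over all 18117 tested probes at 0.05. Each array pairs the 2 RNAs, and exchanged dyes cancel a dye effect in the mean. Precision is limited by the number of arrays. On simulated data with 100 changed probes per size, 94% of changes of 2 and 100% of changes of 3 on the log2 scale were recovered, with 9 false calls among 18117 probes. Those data had independent errors and no changes below 2, whereas 125 of the 128 tested splicing probes lay within 1. Recovery at the sizes of most splicing calls is therefore not known from it. Members and lists were chosen with earlier results of these data known. Full values were given to called probes, to the brightest probe of each role, to genes whose probes span over 2 and to probes seen in 1 RNA only (as ranges); other members were named by their place in a group. RefSeq accessions matched 115 of the 156 probes to current names (GRCm38.p6). Other normalizations, background corrections, filters and moderation settings, and each array alone, were tried as alternatives.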

Additional observations from a re-analysis of the deposited data

How the results depend on the processing

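Counts of calls changed with the normalization. Higher and lower calls among the splicing probes were 2 and 7 after loess, 101 and 0 with median centring, 36 and 14 with quantile normalization, and 21 and 8 with the scanner's processed signals, and the splicing median moved from −0.06 to 2.69, 0.22 and 0.23. Over all probes the calls were 1017 and 1977 after loess, 10778 and 265 with median centring, 7415 and 3019 with quantile normalization and 5798 and 2574 with processed signals, and over the other splicing genes 3 and 14, 133 and 0, 68 and 16, and 46 and 11. With median centring the prior degrees of freedom were infinite, so its p-values rest on 1 shared variance, and the calls of Sfrs11 (2.58), Snrpg (3.53), Hnrpa3 (3.37 and 3.32) and Snrpa (3.65) changed sign. Quantile normalization called 9 of the 9 splicing calls in the same direction and processed signals 6.

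With an offset of 10 the splicing calls were 4 and 13 (median −0.15), those of all probes 1862 and 3048, and those of other splicing genes 7 and 15. Plain subtraction gave 0 and 4 (median −0.14), 480 and 1531 over all probes, and 3 and 5 for other splicing genes. Of the 9 splicing calls after loess it kept 2, those of Sf3b1 and Prpf18. With outlying local backgrounds kept, limma called 0 and 0 of 139 splicing probes (0 at an unadjusted p under 0.05; median 0.0037), 0 and 0 of all probes (159 unadjusted) and 0 and 0 of other splicing probes; the cause was not tested. Probes above background in both RNAs gave 4 and 7 (5.13% and 8.97%, median −0.12), against 12.3% and 21.9% of all such probes. The brightest probe a gene gave 2 and 4 (2.7% and 5.41%, fewer probes tested), against 6.09% and 12.7% of all genes, and 1 and 11 for other splicing genes. Trended eBayes gave 6 and 9, 1713 and 2463 over all probes, and 8 and 15 for other splicing genes. The calls of splicing probes without a filter were 3 and 7 (2.11% and 4.93%, all probes 2.98% and 5.12%). With robust eBayes they were 2 and 7 (1.56% and 5.47%, all probes 5.21% and 9.73%).

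An array alone has no test. Past 2-fold, the arrays alone gave 0 to 1 splicing probes higher and 4 to 5 lower, 209 to 469 and 1346 to 2062 of all probes, and 0 and 7 to 8 of other splicing probes. The splicing median was −0.09 to −0.03. Splicing probes well above background were 133 to 138 in the ADM-labelled and 81 to 119 in the cell-labelled RNA. No paired analysis was possible because both arrays form 1 group, each already a pair.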
